A study of Mus musculus with 34 samples.

Results

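Fos binding after KLA was compared between thioglycollate-elicited macrophages (TGEMs) of C57Bl/6EiJ mice, called C57 here, and of Balb/cJ mice, called BALB. The members were all peaks in the Fos list of each strain, 24365 in C57 and 40459 in BALB, and the 2 lists belong to a series of 34 samples, of which 30 had a list that could be read here. Joining every C57 and BALB peak that shared 1 bp or more gave 43012 Fos loci on chromosomes 1 to 19 and X. Of these, 21764 were shared, 2589 were C57-only (6.02%) and 18659 were BALB-only (43.4%).

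TGEMs are the macrophages that thioglycollate draws into the peritoneal cavity, and KLA (Kdo2-lipid A) is a bacterial lipid that activates them through the receptor TLR4. The cells of both strains came from male mice of 8 weeks, were collected 3 days after the injection, and were given 100 ng/mL KLA for 1 h. The labels name no engineered allele in either strain, and the methods of the study write the first strain as C57BL/6J. How many mice were pooled for a library is not given in the sources used here. In ChIP-seq an antibody, here the same Fos antibody in both strains, pulls down the DNA that a protein is bound to, and its sites appear as peaks of sequenced fragments.

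Fos is a subunit of AP-1, a family of leucine zipper transcription factors that bind DNA as dimers. It does not pair with itself but with Jun, JunB or JunD, and the dimers prefer the TRE, which reads TGACTCA on one strand and TGAGTCA on the other. Fos is an immediate-early gene, so its protein is scarce in resting macrophages and appears soon after a TLR4 signal. It can bind at enhancers where PU.1 or CEBP factors also bind. ATF3 is another family member that dimerises with Jun proteins.

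The sequences at the centre of the strongest loci of each class are shown because the classes differed in how often they held a TRE. Each is the central 200 bases of a locus on the GRCm38 reference, which is the C57BL/6J genome, read on the forward strand, with every TRE in capitals. BALB alleles were not read. The strongest C57-only loci with no BALB Fos peak within 1 kb were named by the nearest transcription start site (TSS), and their windows were chr4:145267882-145268081 at Tnfrsf1b, a receptor for TNF, chr3:50737299-50737498 at Slc7a11, the cystine transporter, and chr16:49840351-49840550 at Cd47, a cell surface signal against phagocytosis. The Tnfrsf1b window held no TRE in the reference, and the others held 1 each.
Tnfrsf1b locus: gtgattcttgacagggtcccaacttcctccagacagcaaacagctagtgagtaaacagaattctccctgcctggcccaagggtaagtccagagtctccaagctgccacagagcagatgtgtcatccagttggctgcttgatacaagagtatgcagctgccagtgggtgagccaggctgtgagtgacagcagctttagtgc
Slc7a11 locus: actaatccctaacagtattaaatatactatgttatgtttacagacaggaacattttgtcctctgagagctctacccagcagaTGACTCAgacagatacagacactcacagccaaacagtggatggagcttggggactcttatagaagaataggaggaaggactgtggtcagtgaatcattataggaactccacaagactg
Cd47 locus: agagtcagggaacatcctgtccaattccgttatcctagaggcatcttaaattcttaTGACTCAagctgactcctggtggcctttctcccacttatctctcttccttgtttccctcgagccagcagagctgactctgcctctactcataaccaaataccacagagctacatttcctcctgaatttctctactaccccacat

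The strongest BALB-only loci were nearest to Il2, the T cell growth factor, at chr3:37173342-37173541, to Tnfaip3, which encodes the NFkB inhibitor A20, at chr10:18943343-18943542, and to Tbc1d7, a subunit of the TSC complex that restrains mTORC1, at chr13:43177517-43177716. Of these, the Il2 window held 1 TRE in the reference and the others held none.
Il2 locus: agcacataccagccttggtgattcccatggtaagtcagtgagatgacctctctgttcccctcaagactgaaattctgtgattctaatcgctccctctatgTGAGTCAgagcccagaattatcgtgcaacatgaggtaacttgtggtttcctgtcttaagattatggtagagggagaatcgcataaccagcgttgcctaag
Tnfaip3 locus: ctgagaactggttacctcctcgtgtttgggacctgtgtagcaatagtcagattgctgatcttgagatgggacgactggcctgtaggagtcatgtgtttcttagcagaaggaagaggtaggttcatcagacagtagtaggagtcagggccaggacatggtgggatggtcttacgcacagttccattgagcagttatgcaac
Tbc1d7 locus: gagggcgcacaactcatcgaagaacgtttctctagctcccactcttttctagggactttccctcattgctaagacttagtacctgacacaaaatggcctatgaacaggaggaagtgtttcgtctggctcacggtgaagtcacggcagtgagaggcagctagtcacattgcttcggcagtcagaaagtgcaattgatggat

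The shared loci with the best ranks in both lists were nearest to Chst11, a chondroitin sulfotransferase, at chr10:82962643-82962842, to Cdc42bpg, a kinase that binds Cdc42, at chr19:6297704-6297903, and to Pfkfb3, which drives glycolysis, at chr2:11429720-11429919. The Pfkfb3 window held 3 TREs, the Cdc42bpg window 2 and the Chst11 window none.
Chst11 locus: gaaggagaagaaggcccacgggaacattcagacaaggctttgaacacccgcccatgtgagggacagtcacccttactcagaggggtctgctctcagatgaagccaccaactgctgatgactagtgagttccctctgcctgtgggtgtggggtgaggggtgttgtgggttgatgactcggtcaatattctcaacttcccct
Cdc42bpg locus: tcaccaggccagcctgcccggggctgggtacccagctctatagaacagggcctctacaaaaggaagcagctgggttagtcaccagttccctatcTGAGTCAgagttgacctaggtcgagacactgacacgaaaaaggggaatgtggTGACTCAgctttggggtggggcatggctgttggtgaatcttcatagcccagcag
Pfkfb3 locus: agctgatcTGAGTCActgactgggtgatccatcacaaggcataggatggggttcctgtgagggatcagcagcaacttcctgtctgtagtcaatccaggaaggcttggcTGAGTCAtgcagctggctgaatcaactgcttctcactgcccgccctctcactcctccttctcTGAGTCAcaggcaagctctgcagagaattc

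The strength of a peak is given here by its read count as deposited, with no scaling for library size, and each list combines the replicate experiments of its condition. Therefore no test between replicates could be run (no replicates), and the intervals given with percentages are 95% Wilson intervals over loci or peaks that cover counting error only. The counts had a median of 51 and a highest value of 312 in C57, and a median of 65 and a highest value of 467 in BALB. They summed to 1535886 in C57 and 3569846 in BALB, so the BALB list was longer and held higher counts, and depth, the filter on reproducibility and the strain cannot be told apart as its source. A locus that is missing from a list did not pass this filter and is not shown to be unbound. In C57 and BALB, the other lists after KLA had median counts of 74 and 44 for ATF3 and 31 and 36 for Jun. For JunD they were 277 and 49, and for JunB 34 and 42. Raw counts of these monomers are therefore not comparable between the strains. These files measure no RNA, so the cell type could be checked only by peaks: Fos loci lay within 5 kb of 9 of 10 macrophage marker genes and of 3 of 10 marker genes of other cells, against 48.0% of 21755 protein-coding genes.

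Most C57 Fos peaks were also in the BALB list, whereas the reverse held for a smaller part of the longer BALB list. Of the C57 peaks, 89.4% (89.0 to 89.8, 21775 of 24364) overlapped a BALB peak. Of the BALB peaks, 53.9% (53.4 to 54.4, 21798 of 40457) overlapped a C57 peak. When the BALB list was cut to the length of the C57 list by count, the percentages were 77.8% and 77.9%, and 18.1% of the 29748 loci were C57-only (5399) and 18.1% BALB-only (5394). Of those 5399 loci, 2810 (52.0%, 50.7 to 53.4) had a weaker BALB peak in the full list.

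Whether a peak was shared went with its rank. In the 10% of the C57 list with the highest counts, 99.0% (98.5 to 99.3) of the peaks were shared, and in the lowest 10%, 69.4% (67.5 to 71.2). In BALB the same shares ran from 98.6% (98.2 to 99.0) to 6.38% (5.67 to 7.17). The plot of sharing by rank shows that both lists started at the same level and that the BALB list fell faster. Shared loci had a median count of 54 in C57, where C57-only loci had 34, and a median of 103 in BALB, where BALB-only loci had 42. Strain-specific loci were thus mostly weak peaks, but not all, since the best C57-only locus ranked 323 in its list and the best BALB-only locus 462.

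**Figure D1:**
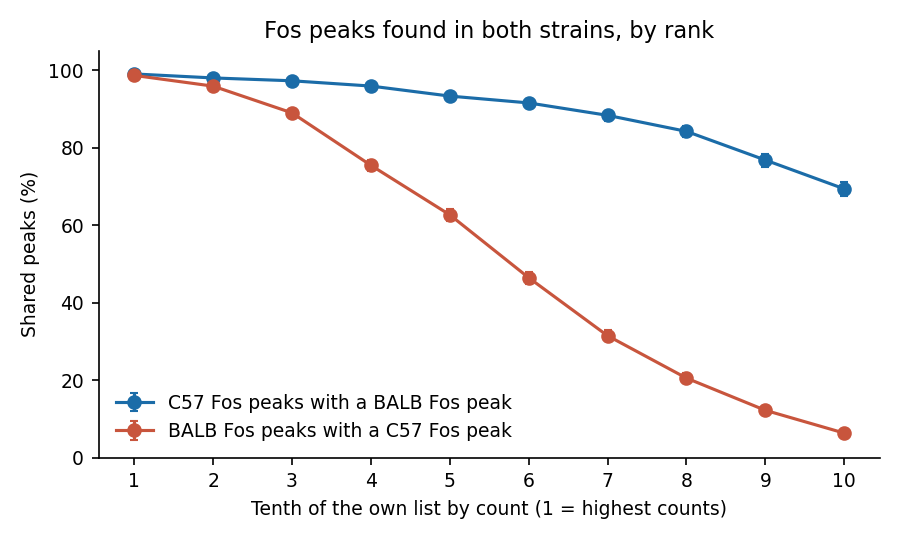
The percentage of Fos peaks that overlapped a Fos peak of the other strain is plotted against rank in steps of 10% of the own list by count, for C57 and BALB peaks, with 95% Wilson intervals. C57 peaks ranged from 99.0% to 69.4% and BALB peaks from 98.6% to 6.38%.

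At the shared loci the strains were much alike in strength. The count in BALB was a median 1.84 times that in C57, and the counts of the strains had a Spearman correlation of 0.83 over 21764 loci, which share chromatin and mappability and are not independent. Each locus was then given the log2 ratio of BALB to C57 counts minus the median over all shared loci, which had a SD of 0.45. On this scale 471 shared loci (2.16%) were over 2-fold higher in C57 and 266 (1.22%) over 2-fold higher in BALB. These values were read from the Fos lists alone and describe the loci.

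The 6 C57-only loci with the highest counts and no BALB Fos peak within 1 kb had Fos counts between 138 and 189. The locus nearest to Tnfrsf1b, 21.1 kb upstream of its TSS and in an exon of Tnfrsf8, had the highest count at 189. The locus nearest to Slc7a11, 294 kb upstream, had a count of 159. The locus nearest to Cd47, 14.9 kb upstream of the nearest TSS and in an intron of Cd47, had a count of 152. The other three lay 53.1 kb upstream of Metap2, which encodes a methionine aminopeptidase, 24.0 kb upstream of Tmem260, and 32.7 kb upstream of Sgk1, a kinase induced by serum and glucocorticoids. None of the 6 lay within 1 kb of a TSS, and 4 of them held a TRE in the central 200 bp.

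Other monomers, read in libraries of their own, went with Fos at most of these loci. At the Slc7a11 locus the C57 lists held peaks of ATF3 (count 100), Jun (23), JunD (471) and JunB (45), and the BALB lists held none of them. The loci at Metap2, Tmem260 and Sgk1 also had all 4 monomers in C57 and none in BALB, with ATF3 counts of 155, 241 and 147 in C57. The Tnfrsf1b and Cd47 loci were different. At Tnfrsf1b, ATF3 (271) and JunD (921) were listed in C57 alone, but Jun (103 in C57 and 98 in BALB) and JunB (126 and 170) were listed in both strains. At Cd47, ATF3 was listed in neither strain, Jun in C57 alone, and JunD and JunB in both.

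The 6 BALB-only loci with the highest counts had Fos counts between 263 and 311. The locus 47.5 kb upstream of Il2 had a count of 311, and the locus 68.5 kb downstream of the Tnfaip3 TSS had a count of 309. The locus 6.12 kb upstream of Tbc1d7 had a count of 305. The others were nearest to Gm20075, in an intron of Sv2c, to Sipa1l2, a regulator of Rap GTPases, and to Mrps23, a subunit of the mitochondrial ribosome. Of these 6 loci, 2 held a TRE.

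The first 2 of these loci, absent from the Fos list of C57, were present in most of its other AP-1 lists. At the Il2 locus ATF3 had a raw count of 314 in C57 and 203 in BALB, and Jun had 77 and 85. JunD had 780 and 207 there, in lists with medians of 277 and 49. JunB was listed there in BALB alone (131). At the Tnfaip3 locus all 4 monomers were listed in both strains, with ATF3 counts of 253 in C57 and 228 in BALB. The Tbc1d7 and Mrps23 loci differed, since none of the 4 monomers was listed in C57, whereas ATF3, JunD and JunB were listed in BALB with ATF3 counts of 241 and 204. The Gm20075 and Sipa1l2 loci had ATF3 in both strains (40 and 63 in C57, 208 and 223 in BALB) and the 3 Jun proteins in BALB alone.

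Among the strong BALB-only loci, those in the top 25% of the list with no C57 Fos peak within 1 kb, the 4 with all 4 monomers in BALB, none in C57 and the highest Fos counts were nearest to Arhgap31, Ifi202b, Pmch and Clic1. The locus 8.34 kb upstream of Arhgap31, which encodes a GTPase-activating protein, had a Fos count of 260 and an ATF3 count of 143. The locus in an intron of Ifi202b, an interferon-induced DNA-binding protein, had a Fos count of 255 and an ATF3 count of 197. The loci nearest to Pmch, the precursor of melanin-concentrating hormone, and to Clic1, a chloride channel protein, had Fos counts of 244 and 231. Before KLA, the Ifi202b locus had no ATF3, Jun or JunD peak in either strain, whereas at the Clic1 locus all 3 were listed in both strains. A C57 Fos peak without KLA, with a count of 19, was also listed at the Clic1 locus.

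The 6 shared loci with the best ranks had counts between 270 and 305 in C57 and between 425 and 452 in BALB. They were nearest to Chst11, Cdc42bpg, Pfkfb3, Tax1bp1, an adaptor of A20, Reep3, a protein of the endoplasmic reticulum, and Ergic1, a protein of the ER to Golgi route. Their distances to the nearest TSS ran from 4.43 kb at Ergic1 to 169 kb at Reep3, and 5 of the 6 held a TRE. ATF3 and Jun were listed in both strains at all 6. Even here not every monomer was listed in both strains. After KLA, JunD was not listed at Pfkfb3 and JunB not at Cdc42bpg in C57, whereas both were listed there in BALB. Without KLA, JunD was not listed at Pfkfb3 in either strain.

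ATF3 and JunD were listed more often in the strain whose list held the Fos peak, while Jun and JunB did not always follow it. ATF3 was present at 92.2% (91.8 to 92.5) of the shared loci in C57 and at 90.1% (89.7 to 90.5) in BALB. At C57-only loci ATF3 was present at 59.1% (1530 of 2589) in C57 and 26.0% (672) in BALB, a difference of 33.1 percentage points (30.8 to 35.5). At BALB-only loci it was present at 57.2% (10672 of 18659) in BALB and 48.1% (8977) in C57, a difference of 9.08 percentage points (8.27 to 9.90). The ATF3 lists of the strains were of nearly equal length, and of all 45432 ATF3 loci 19% were C57-only and 19.2% BALB-only. Among C57-only Fos loci 40.2% had ATF3 in C57 and not in BALB, and among BALB-only Fos loci 20.9% had ATF3 in BALB and not in C57, so the first share was above that of all ATF3 loci and the second was near it. Fos loci without ATF3 count in these shares, whereas all ATF3 loci have it in at least 1 strain.

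Jun, JunD and JunB were also listed more often in C57 at C57-only loci, but the lengths of their lists differed between the strains. JunD was present at 54.7% of the C57-only loci in C57 and 26.5% in BALB, and 19.6% and 24.8% of all 42055 JunD loci were C57-only and BALB-only. Jun was present at 21.3% in C57 and 4.33% in BALB, but its C57 list was the longer, with 45.3% of all 20665 Jun loci C57-only and 15.5% BALB-only. JunB was present at 18.7% in C57 and 14.0% in BALB, although its BALB list was the longer, with 11.4% of all 24439 JunB loci C57-only and 45.3% BALB-only. At BALB-only loci JunD was present at 49.1% in BALB and 38.4% in C57, JunB at 24.2% and 4.81%, and Jun at 10.3% and 13.0%, so Jun went the other way. Listed in C57 and not in BALB at C57-only Fos loci were JunD at 37.5%, Jun at 19.1% and JunB at 14.7%. Listed in BALB and not in C57 at BALB-only Fos loci were JunD at 23.5%, Jun at 6.72% and JunB at 21.9%. JunD was thus above its share over all JunD loci at C57-only loci, and near it at BALB-only loci. As for ATF3, Fos loci without the monomer count in these shares. With Fos lists of equal length, JunB at C57-only loci turned its order, with a peak at 945 of 5399 loci in C57 and at 1026 in BALB, whereas ATF3 (64.8% and 44.5%), JunD (60.0% and 39.3%) and Jun (19.8% and 5.58%) did not.

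Peaks of like count within a strain were then compared, since weak Fos peaks had fewer partners. Among loci with a C57 Fos count from 100 to below 200, ATF3 was listed in BALB at 99.4% (99.0 to 99.6) of 3289 shared loci and at 34.1% (21.9 to 48.9) of 44 C57-only loci. From 30 to below 60, the same shares were 86.4% (85.7 to 87.0) of 10627 loci and 27.2% (25.1 to 29.4) of 1589 loci. Among loci with a BALB count from 100 to below 200, ATF3 was listed in C57 at 98.4% (98.1 to 98.6) of 8331 shared loci and at 71.5% (67.9 to 74.9) of 635 BALB-only loci. From 30 to below 60, they were 73.9% (72.4 to 75.3) of 3647 loci and 45.7% (44.8 to 46.6) of 12000 loci. In each range the loci without a Fos peak in the other strain also had fewer ATF3 peaks there, and the gap was wider at C57-only than at BALB-only loci. The ranges are of raw counts, and at shared loci the BALB count was a median 1.84 times the C57 count. A range thus does not stand for the same strength in both strains, and the widths of the gaps are not directly comparable.

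Strong strain-specific loci were those in the top 25% of their own list by count with no Fos peak of the other strain within 1 kb. There were 82 in C57, with counts from 78 to 189, and 292 in BALB, with counts from 113 to 311, and the counts just outside the threshold were 77 and 112. At the 82 C57 loci, ATF3 was present at 91.5% (83.4 to 95.8) in C57 and 28.0% (19.5 to 38.6) in BALB. At the same loci Jun was present at 91.5% and 8.54%, JunD at 97.6% and 29.3%, and JunB at 91.5% and 22.0%. Many of these loci differed for several monomers at once: 63 of the 82 (76.8%) had all 4 in C57, and 52 (63.4%, 52.6 to 73.0) had none in BALB. Shared loci in the top 25% of the C57 list had ATF3 at 99.7% in C57 and 99.1% in BALB, and Jun at 94.6% and 70.5%.

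The strong BALB-only loci were more mixed. At the 292 loci, ATF3 was present at 95.9% (93.0 to 97.6) in BALB and 66.4% (60.8 to 71.6) in C57. JunD was present at 91.4% and 55.8%, and Jun at 52.1% and 36.6%. JunB differed the most of the 4, with 90.1% in BALB and 17.8% in C57, although shared loci in the top 25% of the BALB list also had it more often in BALB (94.6%) than in C57 (79.2%). Of the 292 loci, 82 (28.1%, 23.2 to 33.5) had none of the 4 monomers in C57, whereas 108 (37.0%, 31.7 to 42.7) had 3 or 4 of them there. In the plot of monomer shares the C57 bars are short in the last panel for JunB and of middle height for ATF3 and JunD.

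**Figure D2:**
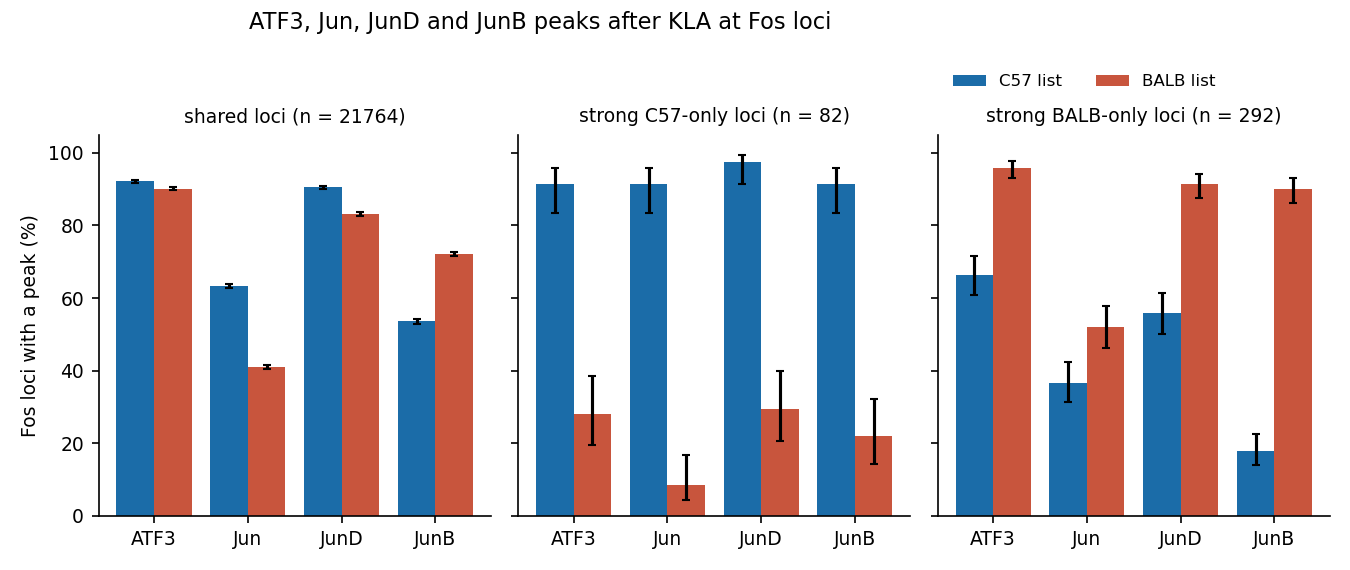
The percentage of Fos loci with a peak of ATF3, Jun, JunD or JunB after KLA is shown for the C57 and BALB lists, at shared loci (n = 21764), strong C57-only loci (n = 82) and strong BALB-only loci (n = 292), with 95% Wilson intervals. At strong C57-only loci all 4 monomers were at 91.5% or more in C57 and at 29.3% or less in BALB.

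The same loci differed before KLA, when few Fos peaks were listed. The C57 list of Fos without KLA had 1804 peaks, and the BALB list as read here held a header and no peak. Whether no BALB peak passed the filter or the list is incomplete is not known. At the strong C57-only loci in cells given vehicle (Veh), ATF3 was present at 65.9% in C57 and 15.9% in BALB, Jun at 62.2% and 12.2%, and JunD at 68.3% and 22.0%. At the strong BALB-only loci, ATF3 was present at 62.3% in BALB and 39.7% in C57, Jun at 48.6% and 30.5%, and JunD at 74.3% and 29.8%. At these strong loci the order of the strains was therefore the same without KLA. Over all BALB-only loci the order of ATF3 was not the same without KLA, at 25.9% in C57 and 23.6% in BALB. Jun, at 15.1% and 10.2%, and JunD, at 21.0% and 34.9%, kept there the order they had after KLA. With Fos lists of equal length, ATF3 was at 38.0% and 38.1% there, which did not differ beyond counting error. Over all C57-only loci, ATF3 was at 23.0% in C57 and 8.73% in BALB, Jun at 15.3% and 4.63%, and JunD at 20.4% and 18.2%.

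Strength at shared loci followed the same pattern in a graded way. At the 471 shared loci over 2-fold higher in C57 for Fos, the scaled log2 ratio of BALB to C57 counts had a median of -0.79 for ATF3 (261 loci with a peak in both strains), -0.53 for Jun (28), -0.88 for JunD (193) and -0.84 for JunB (91). At the 266 loci over 2-fold higher in BALB it was 0.49 for ATF3 (240), 0.28 for Jun (106), 0.40 for JunD (226) and 0.61 for JunB (114). Each monomer was scaled by its own median, and the loci within 2-fold for Fos had medians between -0.0018 and 0.0015.

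The lists of ATF3, JunD and JunB differed in the same direction at these loci. Those of Jun did so only at the loci higher in C57 (45.6% in C57 and 8.28% in BALB). At the loci higher in BALB, Jun was listed at 62.0% in C57 and 61.3% in BALB. At the loci higher in C57, ATF3 was listed at 84.5% in C57 and 61.4% in BALB, and at the loci higher in BALB at 91.7% in C57 and 98.5% in BALB. Over all shared loci with a peak in both strains, the ratios of Fos and of the other monomer had a Spearman correlation of 0.26 for ATF3 (18596 loci), 0.17 for Jun (7330), 0.30 for JunD (16993) and 0.36 for JunB (10021). These are descriptions over loci that share base composition and chromatin.

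**Figure D3:**
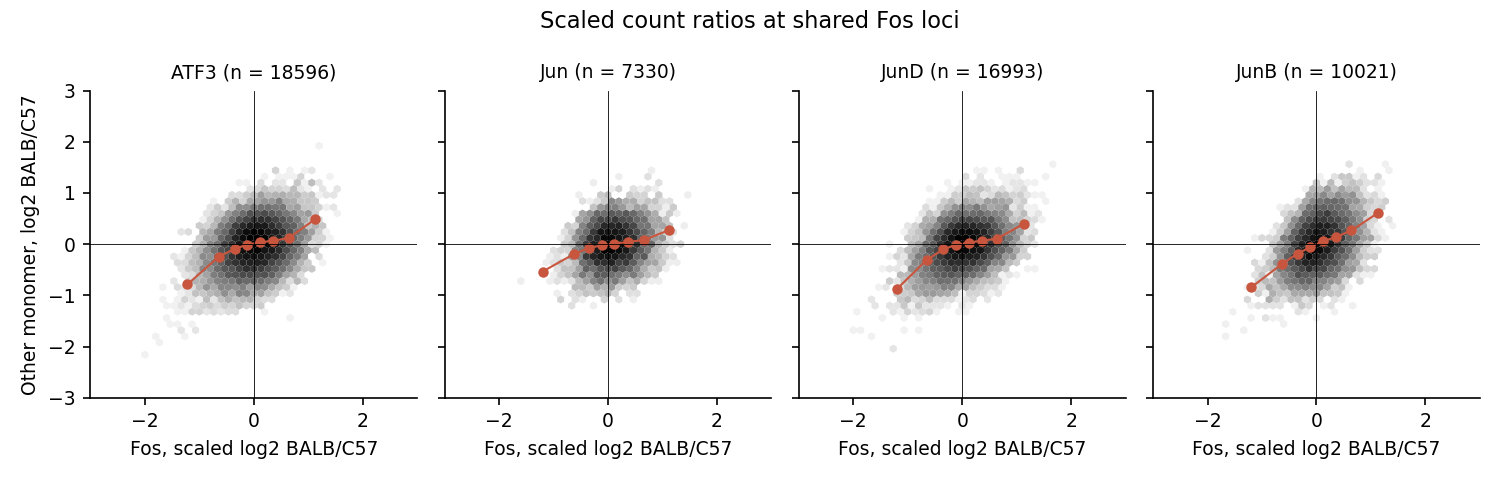
The scaled log2 ratio of BALB to C57 counts of ATF3, Jun, JunD and JunB is plotted against that of Fos at shared Fos loci with a peak of the monomer in both strains, where darker cells hold more loci on a log scale and the red points are medians in bins of the Fos ratio. The medians rise with the Fos ratio in all 4 panels, from -0.79 to 0.49 for ATF3 between the outer bins.

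BALB-only loci lay closer to promoters than the other classes. Within 1 kb of the TSS of a protein-coding gene were 10.6% (10.2 to 11.1) of the shared loci, 11.1% (9.97 to 12.4) of the C57-only loci and 22.3% (21.7 to 22.9) of the BALB-only loci. The median distance to a TSS was 18.4 kb, 18.9 kb and 12.6 kb. The difference narrowed but remained with lists of equal length, where the shares were 10.3%, 12.1% and 18.8%. Among loci with a BALB count from 30 to 60, 13.4% of the shared and 23.3% of the BALB-only loci were near a TSS. Strong loci were near a TSS less often in both classes, with 4 of 82 C57-only loci (4.88%) and 25 of 292 BALB-only loci (8.56%), in the same order. For BALB counts from 100 to below 200, 10.6% (8.39 to 13.2) of the BALB-only and 9.48% (8.87 to 10.1) of the shared loci were near a TSS, intervals that overlapped. Of all C57-only and BALB-only loci, 40.5% and 41.7% were in introns and 46.0% and 33.6% outside genes, in each case more than 1 kb from a TSS. Loci near a TSS count in these totals.

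The larger promoter share of BALB-only loci was not a feature of Fos alone. With lists of equal length, ATF3 had 11.5% of its C57-only and 24.6% of its BALB-only loci within 1 kb of a TSS. The same percentages were 9.79% and 24.5% for Jun and 13.7% and 29.5% for JunD. JunB was the exception, with 9.91% (9.06 to 10.8) and 9.03% (8.22 to 9.92). For Fos the difference was 11.2 percentage points (9.83 to 12.5) in the full lists and 6.74 with lists of equal length.

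**Figure D4:**
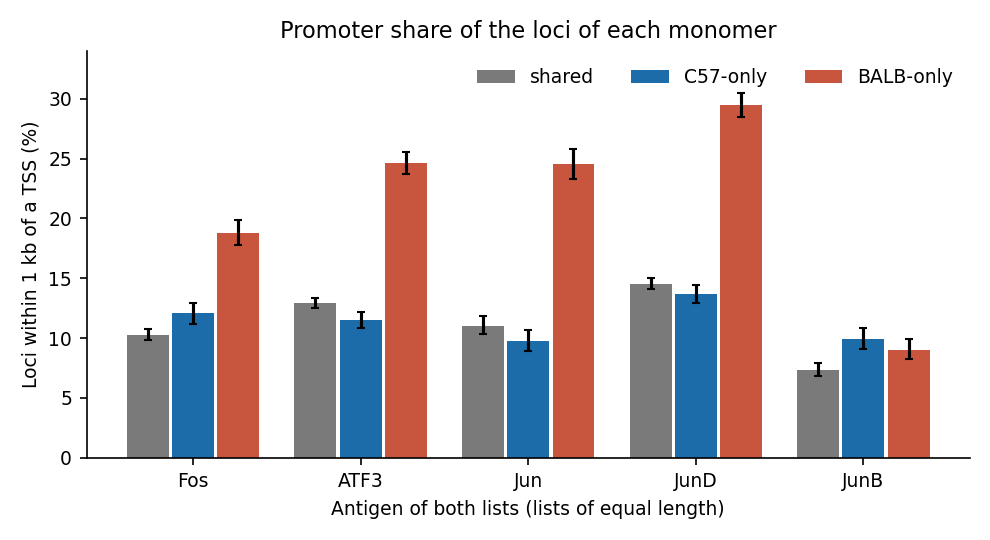
The percentage of loci within 1 kb of the TSS of a protein-coding gene is shown for the loci of Fos, ATF3, Jun, JunD and JunB after KLA, each from a C57 and a BALB list of equal length, by class, with 95% Wilson intervals. BALB-only loci were at 18.8% for Fos and at 24.5% to 29.5% for ATF3, Jun and JunD, above the other classes, and at 9.03% for JunB.

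The TRE was less frequent at BALB-only loci. It was searched as TGACTCA on both strands in the central 200 bp of the reference, and it was present at 41.4% (40.8 to 42.1) of the shared, 38.0% (36.2 to 39.9) of the C57-only and 21.7% (21.1 to 22.3) of the BALB-only loci. Windows of the same length 5 kb away held it at 3.74%, 3.75% and 3.72%. C57-only loci resembled shared loci of the same count: 37.1% (34.8 to 39.5) against 34.4% (33.5 to 35.3) for C57 counts from 30 to below 60. BALB-only loci did not, with 20.9% (20.2 to 21.7) against 35.4% (33.9 to 37.0) for BALB counts in the same range. At the strong loci a TRE was present at 59.8% (48.9 to 69.7) of the 82 C57-only and 34.6% (29.4 to 40.2) of the 292 BALB-only loci, against 56.3% and 48.5% of shared loci in the top 25% of the C57 and BALB lists. Since the reference is the C57BL/6J genome, a TRE that only BALB carries could not be seen.

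Other motifs told the classes apart in part. CRE (TGACGTCA), the site that AP-1 and CREB proteins share, was present at 0.836% of the shared, 0.425% of the C57-only and 1.60% of the BALB-only loci. The Sp1 site of GC-rich promoters (CCCCGCCC) was present at 3.00%, 2.47% and 7.43%. PU.1 (ACTTCCT) was present at 19.9%, 15.8% and 17.5%, and CEBP (TTGCNNAA) at 15.7%, 13.2% and 15.0%. NFkB sites (GGANTTTCC) were present at 3.52%, 3.59% and 2.50%, and the IRF motif (TTCNNTTTC) at 8.43%, 6.49% and 8.42%, near the 6.63% to 7.42% of the flanking windows. None of these motifs holds another in full, and both strands were searched. A motif match is no measure of binding, and a window without these letters may hold another form of the site.

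Loci of each class, shared ones included, lay next to others of their class somewhat more often than the share of that class. For shared loci the next locus was also shared for 53.5% (52.8 to 54.1), against 50.6% of all next loci. With lists of equal length it was 65.4% against 63.7%. The next locus on the chromosome was also C57-only for 10.8% (9.61 to 12.0) of the C57-only loci, when 6.02% of all next loci were C57-only. It was also BALB-only for 47.5% (46.8 to 48.2) of the BALB-only loci, against 43.4% of all next loci. With lists of equal length the shares were 24.0% (22.8 to 25.1) for C57-only and 22.5% (21.4 to 23.6) for BALB-only loci, against 18.2% and 18.1%. When only neighbours at least 5 kb apart were used, the shares were 10.9% for C57-only and 50.1% for BALB-only loci, against 6.64% and 46.6%.

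The autosomes were alike and the X chromosome stood apart. BALB-only loci were between 41.4% and 46.3% of the loci on each autosome and 58.5% of the 663 loci on X, and C57-only loci were between 4.76% and 7.97% on the autosomes and 3.92% on X. On X the Fos list held 1.13% (1.00 to 1.27) of its peaks in C57 and 1.58% (1.46 to 1.70) in BALB. For ATF3 the same percentages were 1.61% and 1.62%, for Jun 0.915% and 0.831%, for JunD 1.40% and 1.64%, and for JunB 0.778% and 1.49%. The mice of both strains were male, and whether the X chromosome differs for a reason of depth was not tested.

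Windows of 2 Mb showed a few stretches where a strain lacked Fos peaks. Of 1131 windows with a locus, 905 held 10 or more, with a median of 43.9% BALB-only and 5% C57-only loci. On chromosome 18 between 8 and 10 Mb, around Ccny, Cetn1 and Colec12, all 19 loci were BALB-only, and 4 of them were strong. There the C57 lists after KLA had 1 ATF3, 3 JunD and 1 JunB peak and the BALB lists 19, 12 and 12. Without KLA, ATF3 had 2 peaks in C57 and 16 in BALB in this window, and JunD had 2 and 17. The C57 list of PU.1, the macrophage master regulator, had 3 peaks there, so the window was not empty of all C57 peaks.

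A window on chromosome 6 between 106 and 108 Mb, around Cntn4, Crbn and Il5ra, had 10 Fos loci, all BALB-only. ATF3 had 1 peak there in C57 and 8 in BALB, and JunD had 2 and 9. A window on chromosome 8 between 30 and 32 Mb, around Mak16 and Nrg1, had 12 BALB-only loci of 13, with 3 ATF3 peaks in C57 and 14 in BALB. In the next window by share, on chromosome 1 between 142 and 144 Mb around Rgs2, ATF3 had 8 peaks in C57 and 9 in BALB although 10 of 11 Fos loci were BALB-only. In the last of the 5, on chromosome 13 between 22 and 24 Mb in a cluster of histone genes, ATF3 had more peaks in C57 (24) than in BALB (17) although 19 of 22 Fos loci were BALB-only, while JunD had fewer in C57 (12) than in BALB (21). Jun had 3 peaks or fewer in each strain in the first 3 windows, and JunB had no C57 peak in 4 of the 5.

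The windows with the largest C57-only share were less extreme. On chromosome 12 between 114 and 116 Mb, around Adam6a and Zfp386, 5 of 13 loci were C57-only, 8 were BALB-only and none was shared. There the other lists held fewer peaks in C57 than in BALB, with 4 and 6 for ATF3, 2 and 6 for JunD and 2 and 6 for JunB, and no Jun peak. The neighbouring window between 116 and 118 Mb, around Rapgef5 and Ncapg2, had 7 C57-only loci of 25, and its C57 lists held more ATF3 (29 against 20), JunD (29 against 17) and Jun peaks (19 against 7). A window on chromosome 1 between 192 and 194 Mb, around Traf5 and Syt14, had 6 C57-only loci of 24, with 27 ATF3 peaks in C57 and 18 in BALB. The others, on chromosome 1 between 158 and 160 Mb (6 of 19) and on chromosome 13 between 118 and 120 Mb (4 of 18), had 12 ATF3 peaks each in C57 and 10 and 13 in BALB. Over the windows, the log2 ratio of BALB to C57 peak numbers of Fos had a Spearman correlation of 0.40 with that of ATF3 (904 windows), 0.38 with JunD (902), 0.39 with JunB (822) and 0.19 with Jun (756).

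**Figure D5:**
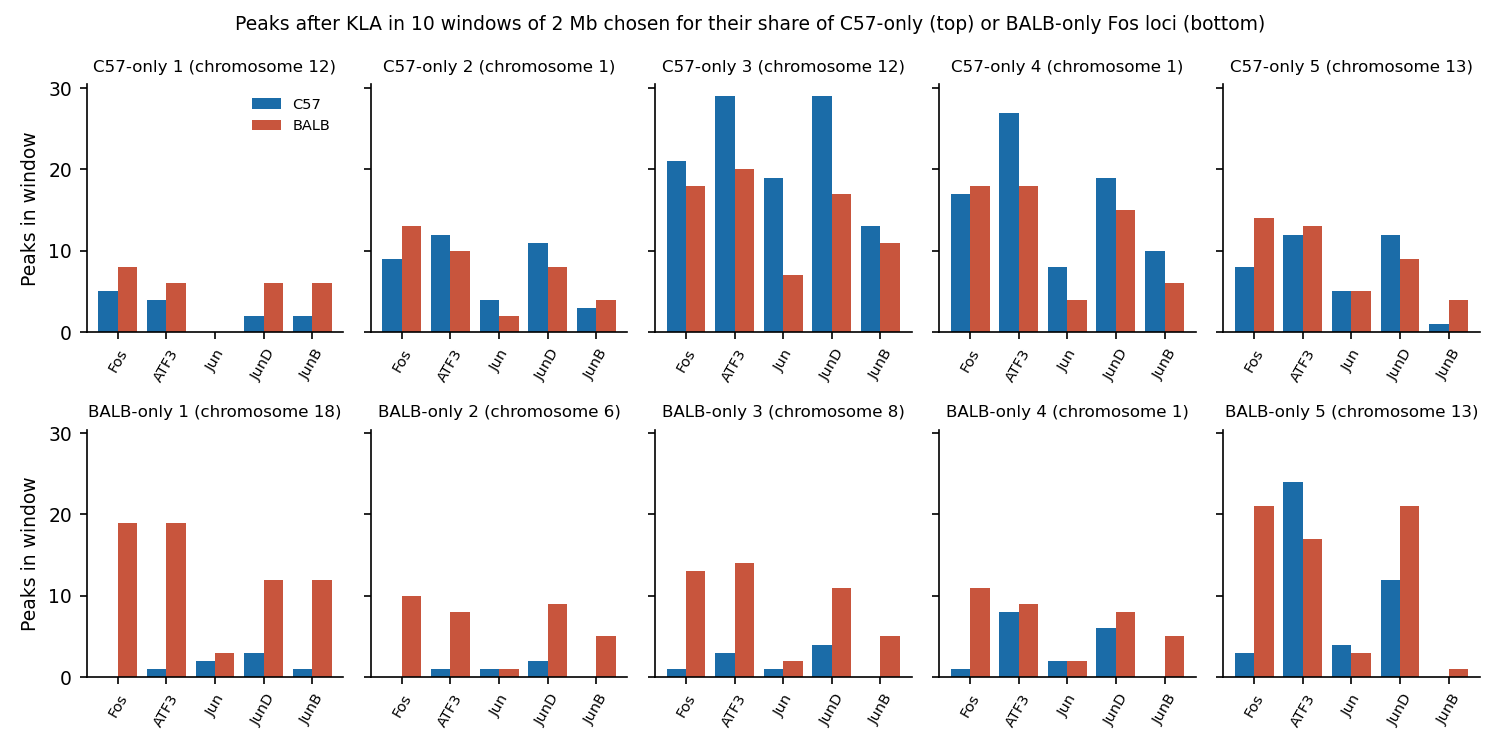
The number of peaks after KLA in each C57 and BALB list is shown for the 10 windows of 2 Mb with the highest share of C57-only (top) or BALB-only (bottom) Fos loci, among windows with 10 or more loci. The Fos bars chose the windows, and in the chromosome 18 window ATF3 had 1 peak in C57 and 19 in BALB.

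Strong loci were spread widely. The 82 strong C57-only loci lay in 72 windows and the 292 strong BALB-only loci in 221, and 22 windows held both kinds. At most 4 strong BALB-only loci shared a window, in the chromosome 18 window and on chromosome 3 between 36 and 38 Mb around Il2 and Anxa5, where 21 of 46 loci were shared. At most 3 strong C57-only loci shared a window, on chromosome 4 between 132 and 134 Mb around Hmgn2 and on chromosome 11 between 70 and 72 Mb around Nlrp1b, an inflammasome sensor.

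Each of the 12 AP-1 and related genes that were searched had a Fos locus within 5 kb, and their strain-specific loci were mostly BALB-only, as over all loci. Over these genes there were 60 loci, of which 32 were shared, 2 C57-only and 26 BALB-only (43.3%, against 43.4% of all loci). In this and the following lists, all loci include those far from genes, whereas the listed loci lie in a gene or within 5 kb. Atf3 had 9 shared and 3 BALB-only loci, Jdp2, a repressor that dimerises with Jun proteins, had 6 and 4, Junb had 4 and 4, and Fosl2 had 2 and 4. The strongest strain-specific locus of these genes was 3.65 kb upstream of Junb, with a Fos count of 161 in BALB. There ATF3 (83), Jun (37), JunD (102) and JunB (56) were listed in BALB and not in C57. The genes of Fos and Jun were added after their values were seen. Fos had 1 shared locus and 1 BALB-only locus, with a count of 38, and the Jun TSS had a BALB-only locus with a Fos count of 84, where ATF3 was listed in both strains (173 in C57 and 138 in BALB) as was Jun (77 and 85).

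At the 12 genes of NFkB subunits and feedback inhibitors there were 96 loci, of which 48 were shared (50%), 4 C57-only (4.17%) and 44 BALB-only (45.8%), near the shares of all loci. Nfkb1, which encodes p105 and p50, had 24 loci, with 12 shared, 1 C57-only and 11 BALB-only. Tnip1, a partner of A20, had 9 shared and 8 BALB-only loci, and Tnip3 had 4 shared, 1 C57-only and 3 BALB-only. At Rel, which encodes c-Rel, 7 of 10 loci were BALB-only. The strongest of those 7, 0.025 kb upstream of the TSS, had a Fos count of 133 in BALB, with ATF3, Jun, JunD and JunB listed in both strains.

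At the cytokine and chemokine genes, which encode secreted signals, more loci were shared than not, but the lists are short. The 12 cytokine genes had 57 loci, with 33 shared (57.9%), 4 C57-only and 20 BALB-only, and the 13 chemokine genes had 49, with 35 shared (71.4%), 1 C57-only and 13 BALB-only, against 50.6% shared over all loci, near genes or not. Il1a had 3 shared and 5 BALB-only loci, Tnf 4 and 4, Il1b 3 and 4, and Il1rn, which encodes the receptor antagonist of IL-1, had 5 shared, 1 C57-only and 1 BALB-only. Among the chemokines, Cxcl2 had 4 shared, 1 C57-only and 2 BALB-only loci, Ccl2 and Ccl4 had 4 shared each with 2 and 1 BALB-only, and Cxcl1 had 3 shared and 2 BALB-only. These genes attract neutrophils and monocytes, and their strongest strain-specific locus, 2.73 kb upstream of the Ccl2 TSS, had a Fos count of 118 in BALB, with a C57 Fos peak within 1 kb of it.

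The lists of immediate-early genes and macrophage transcription factors had 53.1% and 46.9% shared loci, near the 50.6% of all loci. The 17 immediate-early genes and phosphatases had 96 loci, with 51 shared, 3 C57-only and 42 BALB-only. Among them, Dusp1, the phosphatase that ends p38 and JNK signals, had 15 shared, 2 C57-only and 7 BALB-only loci, Klf6 had 7, 1 and 3, Zfp36, which destabilises cytokine mRNAs, had 4, 0 and 3, and Dusp16 had 1, 0 and 6. The annotated span of Dusp1 was long, from 26505590 to 26562128 on chromosome 17, and some loci in it were nearest to Ergic1. A BALB-only locus among them lay 0.004 kb downstream of an Ergic1 TSS. The 11 macrophage transcription factors had 113 loci, with 53 shared, 8 C57-only and 52 BALB-only. Mitf had 15, 3 and 13, Runx1 had 13, 1 and 14, Spi1, which encodes PU.1, had 7, 1 and 4, and Pparg had 3, 2 and 6.

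The 10 macrophage markers had 51 loci, with 31 shared (60.8%), 4 C57-only and 16 BALB-only, and Marco had none. Csf1r, the receptor of the growth factor that macrophages need, had 7 shared, 2 C57-only and 1 BALB-only locus, Tlr4 had 6, 0 and 3, Itgam 4, 1 and 3, and Mrc1 4, 0 and 3. Of the markers of other cells, Pecam1 of the endothelium had 7 shared and 1 BALB-only locus and Siglecf of eosinophils 1 and 2. T cell, epithelial, fibroblast, neutrophil, mast cell, keratinocyte and smooth muscle markers had no Fos locus in either strain. A peak near a gene is no measure of its expression.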

How the data were processed

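ChIP-seq of Fos after 1 h KLA in C57 and BALB TGEMs was read from 1 peak list per strain, beside 18 other lists of the series. C57 reads were aligned by the authors to mm10 and BALB reads to a BALB/cJ version of it, with Bowtie2. BALB positions were then moved back to mm10, and reads in BALB/cJ deletions were not used. HOMER called peaks against input, and only those reproducible at an IDR below 0.05 were kept. A C57-only locus inside such a deletion could not have had a BALB peak. The counts deposited with each peak were used for ranks, and how replicate experiments were combined in them is not given in the sources used here. The score that the authors deposited, a scaled IDR between 540 and 1000, was read only to describe the lists. No files of fold changes were used.

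Tools were pysam 0.24.0, scipy 1.17.1, pandas 2.3.3, numpy 2.4.6 and matplotlib 3.10.9 under Python 3.11.15. Peaks were joined at 1 bp of overlap, TSSs and genes were those of protein-coding genes in GENCODE, and sequences came from RefSeq's GRCm38, with mm10 and GRCm38 being the same build. Chromosome Y, the mitochondrial genome and unplaced sequences were left out. Percentages carry 95% Wilson intervals, differences of percentages normal ones. On 5900 simulated loci set far apart, the joining step returned the simulated number of loci of each class. Crowded peaks were not simulated, and loci were not checked one by one. Named genes were up to 4 of each list with the most loci. Named loci were the 6 strongest of each class, with strain-specific ones at least 1 kb from a Fos peak of the other strain, the 4 strong ones of each strain with most other monomers in that strain alone, and the 5 windows of 2 Mb highest for each class. Members and lists were chosen with earlier results of these data known. The alternatives were lists of equal length, centres within 100 bp, 50% reciprocal overlap, the strongest 50% of each list, TSSs within 3 kb, ATF3 lists of equal length, neighbours at least 5 kb apart and the central 100 bp. The strong loci at the top 10%, the ATF3 lists of equal length there, and a range of BALB counts were chosen after seeing the data. Lists of PPARγ, of PPARγ knockout cells, and the Veh lists of PU.1, CEBPα, FosL2, JunB and BALB Fos were left out, and the 4 inputs were not used here. The values of 1 marker gene of other cells are not reported here.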

Additional observations from a re-analysis of the deposited data

How the results depend on the processing

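Of 43 recomputed values, 14 moved by less than their interval and 29 by more. None of the differences changed sign, and the plain percentages among the values have no sign to change. With lists of equal length, 77.8% of C57 and 77.9% of BALB Fos peaks were shared, the TSS difference between BALB-only and C57-only loci was 6.74 percentage points, the ATF3 differences were 20.4 at C57-only and 12.6 at BALB-only loci, neighbours of the same class were 24.0% and 22.5%, and the TRE difference was 12.2 points. With centres within 100 bp these were 87.3% and 52.6% shared, 9.66 for the TSS, 27.7 for ATF3 at C57-only loci and 13.6 for the TRE. With 50% reciprocal overlap they were 87.9%, 52.9%, 29.6 for ATF3 at C57-only loci and 14.0 for the TRE. With the strongest 50% of each list they were 93.3%, 56.2%, 6.69 for the TSS, 35.8 and 4.78 for ATF3, and 12.4% and 44.9% for neighbours. The class shares to set beside these last percentages are not given here. The TSS difference was 12.6 within 3 kb, BALB-only neighbours at least 5 kb apart were 50.1%, and the TRE difference in the central 100 bp was 13.4. Chosen after seeing the data, the top 10% gave an ATF3 difference of 43.9 at strong BALB-only loci (29.5 at the top 25%), and BALB counts from 30 to 60 gave a TSS difference between BALB-only and shared loci of 9.95 (11.7 over all counts). Apart from the shorter or cut lists, the cause of these shifts was not tested.

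No paired analysis was possible because the labels give no replicate numbers and each strain has 1 list, so leaving out a replicate was not possible either. Depth, antibody efficiency and the IDR filter cannot be told apart from strain in the lengths of the lists. BALB sequence was not read, so lost or gained motifs and reads in deletions were not checked locus by locus.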

Other observations

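PU.1 and CEBPα, which mark macrophage enhancers, and the Fos relative FosL2 were read in C57 lists after KLA, with no BALB list to compare. PU.1 was present at 62.7% (62.0 to 63.3) of the shared, 38.4% (36.5 to 40.2) of the C57-only and 37.6% (36.9 to 38.3) of the BALB-only Fos loci. CEBPα was present at 38.3%, 16.9% and 15.4%, and FosL2 at 40.7%, 12.8% and 4.80%. The strong C57-only loci had PU.1 at 79.3% (69.3 to 86.6) and FosL2 at 64.6% (53.8 to 74.1), whereas the strong BALB-only loci had PU.1 at 37.0% (31.7 to 42.7) and FosL2 at 20.5% (16.3 to 25.6) in C57. The C57 Fos list without KLA covered 4.49% of the shared, 4.79% of the C57-only and 1.89% of the BALB-only loci.

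Loci whose central window was mostly repeat-masked were 3.36% of the shared, 6.99% of the C57-only and 4.93% of the BALB-only loci. The locus 0.168 kb upstream of Il23a, a subunit of interleukin 23, was named after its values were seen and was C57-only with a Fos count of 71, with a BALB Fos peak within 1 kb of it and with peaks of ATF3 in C57 (109) and JunB in BALB (65).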
